A study of Mus musculus with 8 samples.

Results

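Cytosolic ribosomal protein genes encode the proteins of the ribosomes that translate messenger RNA in the cytoplasm. They were followed here in fetal mouse hearts with and without *Dio3*, the gene of the type 3 deiodinase, an enzyme that inactivates thyroid hormones. A gene was included when its symbol in the deposited table was Rpl or Rps followed by a number, with an optional closing a, l or x, or was *Rplp0*, *Rplp1*, *Rplp2* or *Rpsa*, and pseudogene symbols were left out. This gave 80 of the 26590 gene symbols, carried by 123 of 51414 transcript rows. A gene with several rows, as 32 of the 80 had, was represented by the row with the highest mean of both genotypes. *Rps23* and *Rps4l* were not analysed here.

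The hearts came from 4 Dio3+/+ and 4 Dio3-/- fetuses on a C57BL/6J background. These groups are called wild-type and mutant below. Each heart came from its own fetus, and neither group was treated. The mutation is carried by every cell of the fetus, so it is not limited to the heart, and the series design describes the fetuses as male. The sample titles give E13.5 (E, embryonic day) for all 8 hearts, while hearts 3 and 4 of the Dio3-/- group carry E18.5 as their age, and the study's methods name another age, between these. Ribosomal RNA had been removed before sequencing. The table used here holds only the authors' mean per genotype, read as RPKM (reads per kilobase of transcript scaled to the mapped reads), and the coefficient of variation (CV), the SD divided by the mean of the 4 hearts. Values of single hearts are therefore not given, no heart could be left out, and the age labels could not be checked.

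Each ribosome has a small (40S) subunit, which reads the messenger RNA, and a large (60S) subunit, which forms peptide bonds and ends in a flexible stalk that recruits elongation factors. The proteins are needed in nearly equal numbers. In vertebrates their transcripts share a start in a run of pyrimidines, the terminal oligopyrimidine tract, through which mTOR signaling and the RNA-binding protein LARP1 adjust their translation together. Introns of many of these genes contain small nucleolar RNAs (snoRNAs), which guide the chemical modification of ribosomal RNA. Thyroid hormone is known to raise protein synthesis and growth in the heart.

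The start sites of several genes with results described below are shown as examples, because this shared element was not part of the choice of genes. Each line gives 30 bases of the gene strand around the start annotated by RefSeq on build GRCm38.p6, with 15 bases on either side. Capitals mark a word of the TCT initiator, searched as CCTTTC and as CCTTTT, and also as TCTTTC and as TCTTTT.
*Rps27*, chr3:90213634-90213663, minus strand: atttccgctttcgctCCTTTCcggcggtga
*Rplp2*, chr7:141447636-141447665, plus strand: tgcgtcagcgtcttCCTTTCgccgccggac
*Rpl28*, chr7:4792950-4792979, plus strand: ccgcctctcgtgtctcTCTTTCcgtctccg
*Rps10*, chr17:27635230-27635259, minus strand: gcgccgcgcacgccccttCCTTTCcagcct
*Rps26*, chr10:128626492-128626521, minus strand: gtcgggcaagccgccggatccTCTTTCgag
*Rpl13*, chr8:123102335-123102364, plus strand: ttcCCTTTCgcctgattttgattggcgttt
*Rps2*, chr17:24720048-24720077, plus strand: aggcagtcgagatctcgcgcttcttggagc
*Rpl41*, chr10:128549154-128549183, minus strand: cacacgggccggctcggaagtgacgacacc
*Rpl3l*, the first of 2 annotated starts, chr17:24727811-24727840, plus strand: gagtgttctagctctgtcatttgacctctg

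The windows of *Rps2*, *Rpl41* and *Rpl3l* held no such word. Among genes not printed, the windows of *Rplp0*, *Rpl5*, *Rpl10*, *Rpl11*, *Rps19* and *Rps25* held none either. Those of *Rpl4*, *Rpl34*, *Rps12* and *Rps15a* held such a word. The windows printed therefore do not give its share over the genes. A promoter was listed for 60 of the 80 genes. On the gene strand, 37 of these 60 (61.7%) had a TCT word at any position within 50 bases of an annotated start. The share was 15.3% of all 27025 genes with a listed promoter. With both strands searched, the shares were 70.0% and 27.8%. The ETS word CCGGAAG was present on either strand in 23.3% of the 60 and 5.98% of all genes, and overlaps between the searched words were not counted. The YY1 word AAGATGGC was present in 5.0% and 1.68%. AGGTCA, the core word of the sites that thyroid hormone receptors bind, was found in 1 of the 60 (1.7%) and in 6.08% of all genes. That gene was *Rpl3l*, whose window printed above holds the reverse complement, TGACCT. *Rpl3l* was below 1 RPKM in both genotypes and was not tested. These matches describe letters only and say nothing of binding in the heart.

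The tissue and the genotype were checked first. The 8 cardiomyocyte markers were all present, with a summed level of 9240 RPKM in wild-type and 11000 RPKM in mutant hearts, and 2 of them rose (*Myh6* and *Ryr2*). *Dio3* itself had means of 0.35 RPKM (CV 1.23) in wild-type and 0.13 RPKM (CV 0.76) in mutant hearts, too low in both to check the genotype. Red cell markers were lower in mutant hearts. The summed level of the 8 of 10 listed red cell markers found in the table was 97900 RPKM in wild-type and 34000 RPKM in mutant hearts, and all 8 were lower by sign. Of these 1 (*Hbb-bh1*) fell, with limma's adjusted *P* at 0.047, and this call was lost under 5 of the 10 alternatives run. The liver markers summed to 16.0 and 108 RPKM, with all 8 higher by sign and none past the test. Their median CV was 0.99 in wild-type and 1.11 in mutant hearts, so hearts of the same genotype differed widely in these markers. The 5 endothelial markers summed to 210 and 224 RPKM, the 5 fibroblast and cushion markers to 735 and 641 RPKM, and the 5 of 6 macrophage markers found to 21.1 and 19.8 RPKM, and no marker of these 3 lists passed the test. In whole hearts, fewer cells of a type and less RNA per cell cannot be told apart.

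Ribosomal protein genes were among the most abundant transcripts of both genotypes. Of the 80, 74 had a mean above 100 RPKM, 58 lay between 200 and 600 RPKM and 10 were above 600 RPKM. They held 41 of the 200 highest places among all gene symbols, and 4 of the 100 highest. Over the 77 genes above 1 RPKM, the median level was 374 RPKM in wild-type and 375 RPKM in mutant hearts, against 9.40 and 9.62 RPKM over all genes tested. The highest and lowest of the 77 differed 23.4-fold in level per length, as counted from uniquely mapping reads.

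**Figure D1:**
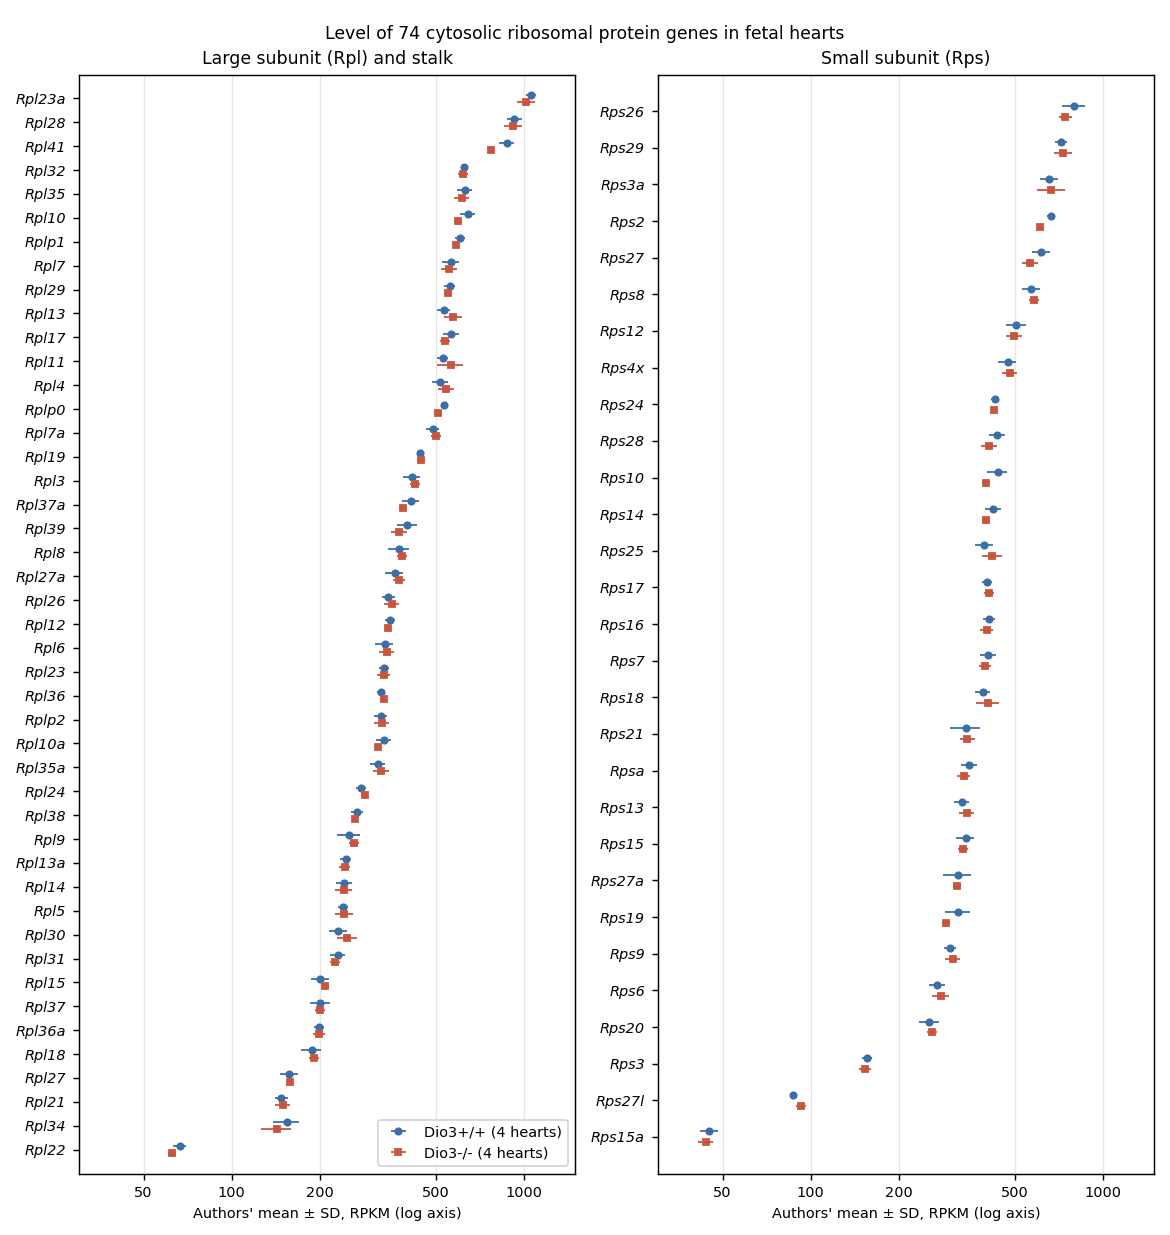
Authors' mean level (RPKM, log axis) of 74 of the 77 ribosomal protein genes above 1 RPKM, with large-subunit and stalk genes on the left and small-subunit genes on the right. Circles are Dio3+/+ and squares are Dio3-/- hearts, bars are the SD of 4 hearts derived from the deposited CV, and the points of both genotypes lie close together for every gene while the genes differ up to 23.4-fold.

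At the top of the range, *Rpl23a*, a large-subunit protein at the exit of the peptide tunnel, had means of 1060.15 RPKM (CV 0.04) in wild-type and 1018.12 RPKM (CV 0.07) in mutant hearts. *Rpl28* followed with 926.82 RPKM (CV 0.06) and 918.69 RPKM (CV 0.07). *Rpl41*, which encodes the smallest ribosomal protein, had 873.54 RPKM (CV 0.06) and 772.87 RPKM (CV 0.02). The next in order were *Rps26* and *Rps29*, both of the small subunit. *Rps26* had 794.54 RPKM (CV 0.09) and 743.64 RPKM (CV 0.05), and *Rps29* had 720.53 RPKM (CV 0.05) and 731.12 RPKM (CV 0.07). In mutant hearts the means of *Rpl41*, *Rps26* and *Rps29* differed from each other by less than the sum of their SDs.

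At the bottom, 3 genes were below 1 RPKM in both genotypes and were not tested. All 3 encode paralogs that replace a general ribosomal protein in particular tissues. *Rpl3l*, the paralog of *Rpl3* used by mature heart and skeletal muscle, had means of 0.21 RPKM (CV 0.51) in wild-type and 0.40 RPKM (CV 0.19) in mutant hearts. *Rpl3* itself had 413.09 RPKM (CV 0.07) and 425.19 RPKM (CV 0.04), so the muscle paralog was a trace beside it in both genotypes. *Rpl39l*, a paralog used in male germ cells, had 0.41 RPKM (CV 1.35) and 0.08 RPKM (CV 0.39), beside 399.31 RPKM (CV 0.08) and 374.51 RPKM (CV 0.06) for *Rpl39*. *Rpl10l*, another testis paralog, had 0.04 RPKM (CV 1.04) and 0.02 RPKM (CV 2), where a CV of 2 is the value given by 4 hearts of which 1 has reads. The paralog *Rps27l*, a p53 target, was well expressed. It had 87.31 RPKM (CV 0.02) and 92.64 RPKM (CV 0.04), beside 614.62 RPKM (CV 0.07) and 564.15 RPKM (CV 0.06) for *Rps27*.

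Above these, the lowest levels were those of *Rps15a* with 45.11 RPKM (CV 0.07) and 43.74 RPKM (CV 0.06) and *Rpl22* with 66.32 RPKM (CV 0.05) and 62.55 RPKM (CV 0.03). RPL22 is a large-subunit protein that is not required for translation in general. For both genes the genotypes differed by less than the sum of their SDs.

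The hearts of a genotype differed little in these genes. Over the 77, the median CV was 0.06 in wild-type and 0.05 in mutant hearts, the lowest was 0.01 and the highest 0.12 in each. Over all genes tested these medians were 0.09 and 0.06. The CV was higher in wild-type hearts for 41 of the 77, equal for 10 and lower for 26, and over all genes it was higher in wild-type hearts for 65.4%.

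The comparison asked whether hearts of fetuses without *Dio3* differed in the transcripts of the translation machinery. No ribosomal protein gene passed the test. The test was limma's empirical Bayes test on log2(RPKM + 0.5), calculated from the deposited means and CVs of 4 against 4 hearts, with Benjamini-Hochberg adjustment over all 32703 rows above 1 RPKM in at least 1 genotype. At the adjusted threshold of 0.05, limma called 0 of the 77 genes and 2.29% of all 14657 genes. Unadjusted, 2 of the 77 were under 0.05 (*Rpl41* and *Rps2*), against 19.7% of all genes, and Welch's test calculated from the same summaries also made 0 calls. At a share of 2.29%, fewer than 2 of 77 genes would be called, so the absence of calls by itself separates these genes little from the rest.

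The differences were also bounded narrowly. The 95% interval of the log2 fold change lay within a 1.5-fold change in either direction for 77 of 77 genes, and within 1.2-fold for 71. Over all genes these shares were 90.5% and 46.8%. The variance was fitted with a trend on the mean level. In wild-type hearts the median level was 374 RPKM for the 77 and 9.40 RPKM for all genes. Genes of like level were not compared, so the narrow intervals are not shown to be particular to these genes. The lowest bound of any of the 77 was a ratio of 0.797 (*Rpl34*). These intervals are not adjusted for the number of genes, and their width follows from the approximation of the SD on the log scale. The 6 genes whose interval passed 1.2-fold included *Rpl34*, *Rpl41*, *Rps10*, *Rps19* and *Rps27*.

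**Figure D2:**
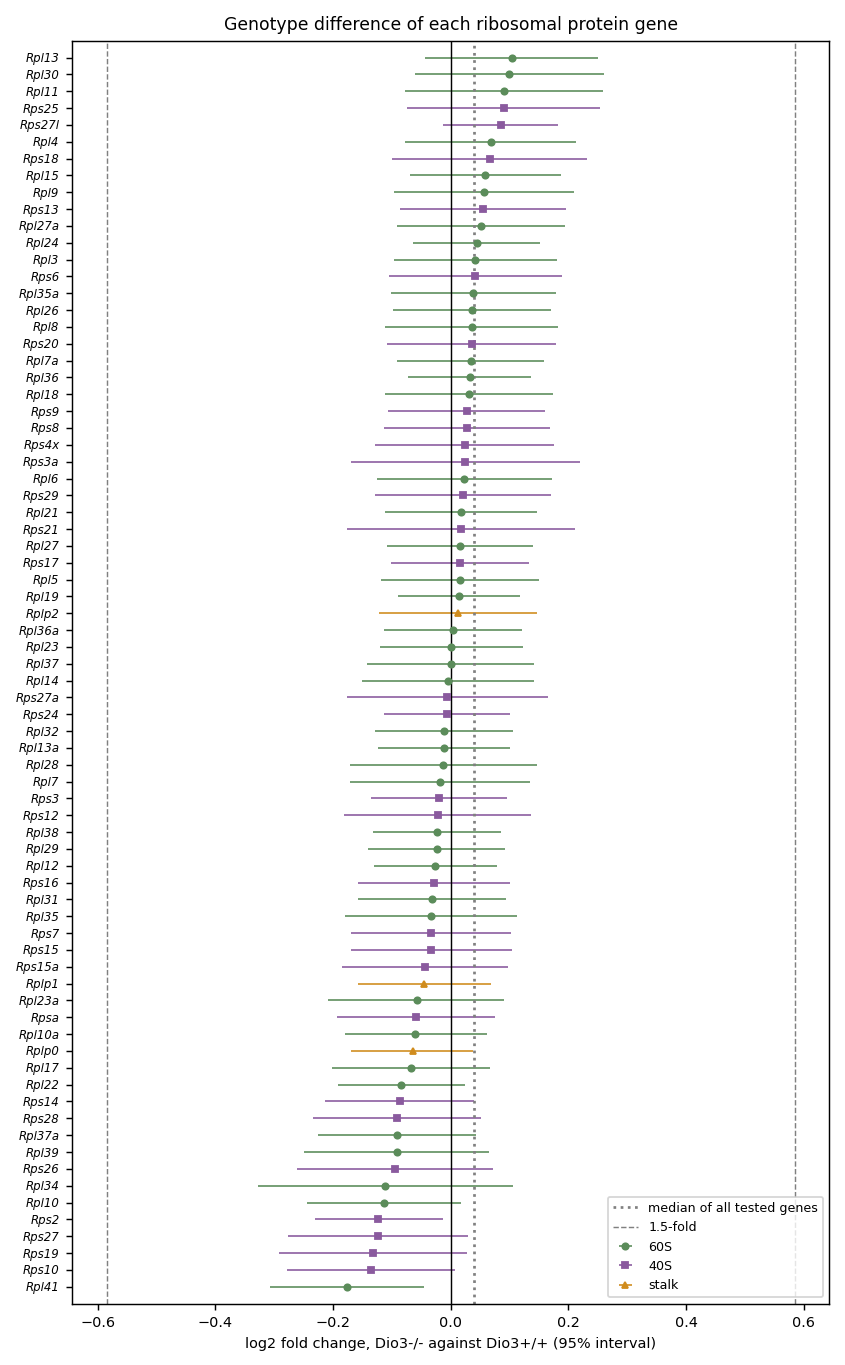
Log2 fold change of Dio3-/- against Dio3+/+ hearts for 74 of the 77 ribosomal protein genes tested, ordered by value, with its 95% interval by limma. Dashed lines mark a 1.5-fold change and the dotted line the median of all genes tested (0.04), and every interval drawn stays inside the dashed lines.

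By sign, 37 of the 77 were higher and 40 lower in mutant hearts, a share of 51.9% lower against 36.1% of all genes. The median log2 fold change was -0.005, with a middle range from -0.045 to 0.034, and over all genes the median was 0.039 with a middle range from -0.041 to 0.117. When the median difference over all rows was set to 0, the median of the ribosomal protein genes was -0.043. The order of levels hardly moved. Spearman's rho between the genotype means was 0.992 over the 77 genes, a description of genes from the same hearts, and no gene moved by more than 10 places.

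Neither subunit had a gene past the test. The 43 large-subunit genes tested, without the stalk, had a median log2 fold change of 0.001, with 22 higher and 21 lower. The 31 small-subunit genes had a median of -0.007, with 14 higher and 17 lower. The summed level of all 80 was 30998 RPKM in wild-type and 30633 RPKM in mutant hearts, a ratio of 0.988, for which the table gives no error. The large subunit contributed 16930 and 16802 RPKM, the small subunit 12607 and 12410 RPKM and the stalk 1461 and 1421 RPKM.

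As a share of the RPKM summed over all gene symbols, the 80 genes made up 4.93% in wild-type and 5.25% in mutant hearts. The 5 globin symbols made up 15.5% and 5.79%. Without the globins, the ribosomal protein share was 5.83% and 5.57%, so the direction of the share depends on whether red cell transcripts are counted. The part of the globins in the differences of single genes was not tested.

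The stalk is built on RPLP0, which binds dimers of RPLP1 and RPLP2. *Rplp0* had means of 532.62 RPKM (CV 0.01) in wild-type and 509.05 RPKM (CV 0.03) in mutant hearts. Its difference was -0.07 on the log2 scale (95% interval -0.17 to 0.04), with limma's adjusted *P* at 0.497. *Rplp1* had 604.26 RPKM (CV 0.04) and 585.66 RPKM (CV 0.02), and *Rplp2* had 323.63 RPKM (CV 0.05) and 326.29 RPKM (CV 0.06). *Rpsa*, a small-subunit protein also known as the laminin receptor, had 348.79 RPKM (CV 0.06) and 334.72 RPKM (CV 0.05). None of these differences passed the test. *Rplp0* is often used as a reference transcript in qPCR, and its genotype means differed by more than the sum of their SDs, as did those of *Rpl41* and *Rps2* among the 77 genes. Over all genes, 15.5% differed by that much.

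The lowest log2 fold change was that of *Rpl41*, at -0.18 (standard error 0.06, 95% interval -0.31 to -0.05). Its adjusted *P* of 0.142 by limma was the lowest of the 77, and its second row gave nearly the same values. Next came *Rps10* at -0.14 (95% interval -0.28 to 0.01), *Rps19* at -0.13 (-0.29 to 0.03), *Rps27* at -0.12 (-0.28 to 0.03) and *Rps2* at -0.12 (-0.23 to -0.01). RPS10, RPS19 and RPS27 sit on the head or platform side of the small subunit, and RPS2 lies at the mRNA entry. *Rps2* had 662.21 RPKM (CV 0.03) and 608.25 RPKM (CV 0.02), a ratio of 0.919 (adjusted *P* = 0.212, limma). None of these 5 passed the test.

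Among the highest log2 fold changes were those of *Rpl13* at 0.10 (95% interval -0.04 to 0.25), *Rpl30* at 0.10 (-0.06 to 0.26), *Rpl11* at 0.09 (-0.08 to 0.26) and *Rps25* at 0.09 (-0.07 to 0.25). *Rpl13* had 531.57 RPKM (CV 0.05) and 571.25 RPKM (CV 0.07), and the interval of each of these 4 genes contained 0. *Rps27l* had the narrowest error of all, at 0.09 on the log2 scale with a standard error of 0.04 (limma's adjusted *P* = 0.338).

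Several of these genes are the ones most often mutated in Diamond-Blackfan anemia, an inherited failure of red cell production. *Rps19* had means of 319.27 RPKM (CV 0.10) in wild-type and 291.33 RPKM (CV 0.03) in mutant hearts (limma's adjusted *P* = 0.365). *Rpl5* had 240.51 RPKM (CV 0.04) and 243.21 RPKM (CV 0.07). *Rpl11*, which with RPL5 binds and inhibits MDM2 when ribosome assembly is disturbed, had 526.86 RPKM (CV 0.04) and 561.10 RPKM (CV 0.10). None of the 4 listed genes of this group, with *Rps26*, passed the test. A relation between these genes and the red cell markers given above was not tested.

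The X-linked members were *Rpl10*, *Rpl36a*, *Rpl39* and *Rps4x*. *Rpl10*, needed for the last maturation step of the large subunit, had 641.27 RPKM (CV 0.06) and 592.65 RPKM (CV 0.03), or -0.11 on the log2 scale (95% interval -0.24 to 0.02). *Rps4x* had 471.74 RPKM (CV 0.07) and 479.52 RPKM (CV 0.06), and neither passed the test.

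Other rows under the same gene symbols did not pass the test either. Of the 43 further rows, 41 were tested, and their log2 fold changes ran from -0.18 to 0.10. *Rps24*, whose last exons are known to be spliced in alternative ways, had 5 rows with means in wild-type hearts of 427.43, 407.26, 377.12, 112.04 and 56.72 RPKM. In mutant hearts the same rows had 425.46, 396.58, 364.27, 108.65 and 54.82 RPKM, each slightly lower and none past the test. Rows of one symbol can share exons and reads, so they are not taken as independent. Whether every row of a symbol lies at the same locus was not checked.

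Ribosomal protein genes have many processed copies in the genome, and the authors kept only reads that mapped to 1 place. In GENCODE transcripts, 76 of the 80 genes shared at least 1 stretch of 75 bases, the read length, with an annotated gene at another locus. The median share of such stretches was 41.8%, and 32 genes shared more than 50%. *Rps27* shared 98.5% with 4 other genes, *Rpl10* 91.9% with 11, *Rpl3* 83.2% with 8 and *Rpl23a*, the highest in level, 81.7% with 16, whereas *Rps3*, *Rpl3l* and *Rpl39l* shared none. The levels of genes with many shared stretches are therefore uncertain. The median level was 411 RPKM for the 32 genes above 50% and 345 RPKM for the 45 others tested. Their median log2 fold changes were 0.023 and -0.017, and the lowest and highest were -0.14 and 0.10 above 50%, and -0.18 and 0.10 below.

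Several snoRNAs that lie inside these genes fell in mutant hearts, while the genes that hold them did not pass the test. By the GENCODE annotation on GRCm38, 58 snoRNA genes lie within ribosomal protein genes on the same strand. Of these, 29 were matched by symbol to the table, in 22 host genes, and 28 of the 29 lay outside every exon of the host's protein-coding transcripts (*Snora7a* in *Rpl32* did not). Of the 29, 23 had a lower mean in mutant hearts, 4 a higher one, and 2 were listed at 0 in both genotypes. The test covered the 18 above 1 RPKM in at least 1 genotype, of which *Rnu73b* passed this limit in wild-type hearts alone. These 18 were lower by sign, and 5 fell by limma's adjusted test, as did 0.382% of all genes. The 11 others included the 4 that were higher, each below 1 RPKM. None of the 15 hosts passed the test. The median log2 fold change was -0.66 over the 18 snoRNAs tested and -0.01 over their hosts.

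**Figure D3:**
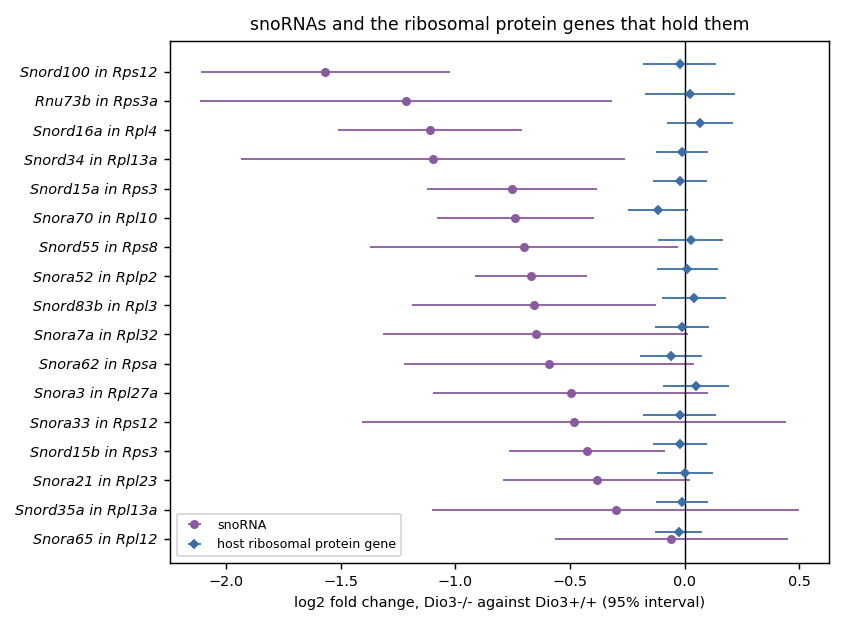
Log2 fold change of Dio3-/- against Dio3+/+ hearts, with 95% intervals by limma, for 17 of the 18 snoRNAs (circles) and the ribosomal protein genes that hold them (diamonds). The snoRNA estimates lie between -1.57 and -0.06, each left of its host, which lie between -0.11 and 0.07.

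The sequences of 3 of the 5 that fell are shown because they are cut from introns of the genes followed here. They are the GENCODE gene-strand sequences on GRCm38. Capitals mark the core of the C box (TGATG) and the last D box (CTGA) of the C/D snoRNAs, which guide methylation, and the last ACA of the H/ACA snoRNA, which guides pseudouridylation. In *Snord16a*, TGATG is followed by T.
*Snord100* in *Rps12*, chr10:23785750-23785823, minus strand: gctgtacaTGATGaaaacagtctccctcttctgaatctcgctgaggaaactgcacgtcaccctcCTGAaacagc
*Snord16a* in *Rpl4*, chr9:64175423-64175521, plus strand: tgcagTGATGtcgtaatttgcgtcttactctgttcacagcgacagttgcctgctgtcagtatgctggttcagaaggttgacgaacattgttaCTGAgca
*Snora52* in *Rplp2*, chr7:141448803-141448939, plus strand: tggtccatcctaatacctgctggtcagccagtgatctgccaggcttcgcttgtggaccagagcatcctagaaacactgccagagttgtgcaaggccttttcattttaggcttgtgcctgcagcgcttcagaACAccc

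*Snord100* fell from 5.01 RPKM (CV 0.43) in wild-type to 1.36 RPKM (CV 0.17) in mutant hearts, which is -1.57 on the log2 scale (95% interval -2.11 to -1.02, limma's adjusted *P* = 0.014). Its host *Rps12* had 505.31 and 497.57 RPKM, or -0.02 on that scale. *Snord16a* fell from 101.53 RPKM (CV 0.18) to 46.77 RPKM (CV 0.25), or -1.11 on the log2 scale (limma's adjusted *P* = 0.017). Its host *Rpl4* had 516.53 and 541.59 RPKM, slightly higher in mutant hearts. *Snora52* fell from 63.85 RPKM (CV 0.03) to 39.98 RPKM (CV 0.18), or -0.67 on the log2 scale (limma's adjusted *P* = 0.018), while its host *Rplp2* is given above. *Snora70* in *Rpl10* fell by 0.74 on the log2 scale, with limma's adjusted *P* at 0.045, close to the threshold.

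SnoRNAs elsewhere were lower by sign too. Of 71 other snoRNA symbols in the table, 40 were tested, 4 of them above the limit in wild-type hearts alone and 1 in mutant hearts alone. By sign 33 of the 40 were lower in mutant hearts, 5 fell and none rose, with a median log2 fold change of -0.47. The snoRNA rows are short and varied more between hearts, with a median CV of 0.27 in wild-type and 0.275 in mutant hearts for the 18. By the study's methods, RNA was extracted with the RNeasy kit and fragmented before sequencing. The snoRNAs shown are 74, 99 and 137 bases long, and how fully RNAs this short were recovered from each heart was not tested. Reads of a snoRNA and of its host's unspliced transcript overlap and cannot be told apart in these values. The difference between snoRNA and host was not tested as such, since the values of single hearts are needed for it. For 11 of the 18, the whole interval of the snoRNA lay below the estimate of its host, a description that leaves out the host's own error. Welch's test calculated from the summaries called 0 of the 18. The summed red cell markers were lower and the summed liver markers higher in mutant hearts, as given above, and their part in the snoRNA levels was not tested.

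Other genes of the translation machinery were read from the same fit. Ribosomal proteins with other names did not pass the test. Of 6 found, *Fau*, which encodes a small-subunit protein fused to a ubiquitin-like one, had 233.58 RPKM (CV 0.06) and 241.07 RPKM (CV 0.06). *Gnb2l1*, the scaffold protein RACK1, had 493.49 RPKM (CV 0.07) and 503.25 RPKM (CV 0.08), and none of the 6 passed the test.

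Of 48 translation factors, 0 passed and 8 had an unadjusted *P* value under 0.05 by limma, against 2.29% and 19.7% of all genes. *Eef1a1*, the general elongation factor that delivers transfer RNA, had 3913.79 RPKM (CV 0.04) in wild-type and 3840.88 RPKM (CV 0.04) in mutant hearts. *Eef1a2*, its paralog in mature muscle and neurons, had 73.94 RPKM (CV 0.21) and 98.50 RPKM (CV 0.12), or 0.41 on the log2 scale (95% interval 0.09 to 0.73, limma's adjusted *P* = 0.156). *Pabpc1*, the cytoplasmic poly(A)-binding protein, had the lowest *P* value of the list, with 825.92 RPKM (CV 0.19) and 554.81 RPKM (CV 0.15). Its difference was -0.57 on the log2 scale (95% interval -0.90 to -0.25, limma's adjusted *P* = 0.073). *Eef1a2* and *Pabpc1* were named after their values were seen, and neither passed the test.

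Of 79 ribosome biogenesis genes, 0 passed and 10 had an unadjusted *P* value under 0.05 by limma, where 2.29% of all genes passed and 19.7% were under 0.05 unadjusted. By sign 68 were higher and 11 lower, with a median log2 fold change of 0.066, beside 36.1% lower and a median of 0.039 over all genes. Of 21 regulators of ribosomal protein transcripts, 0 passed and 1 had an unadjusted *P* value under 0.05 by limma. *Larp1*, which binds the pyrimidine start of these transcripts, had 33.90 RPKM (CV 0.02) and 32.76 RPKM (CV 0.04). *Mtor*, the kinase that controls it, had 9.81 RPKM (CV 0.02) and 10.65 RPKM (CV 0.02), with limma's adjusted *P* at 0.205. *Myc*, a transcription factor that drives ribosome production, was at 12.44 RPKM in each genotype (CV 0.10 and 0.18). *Larp1*, *Mtor* and *Myc* were chosen for these roles with their values known.

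**Figure D4:**
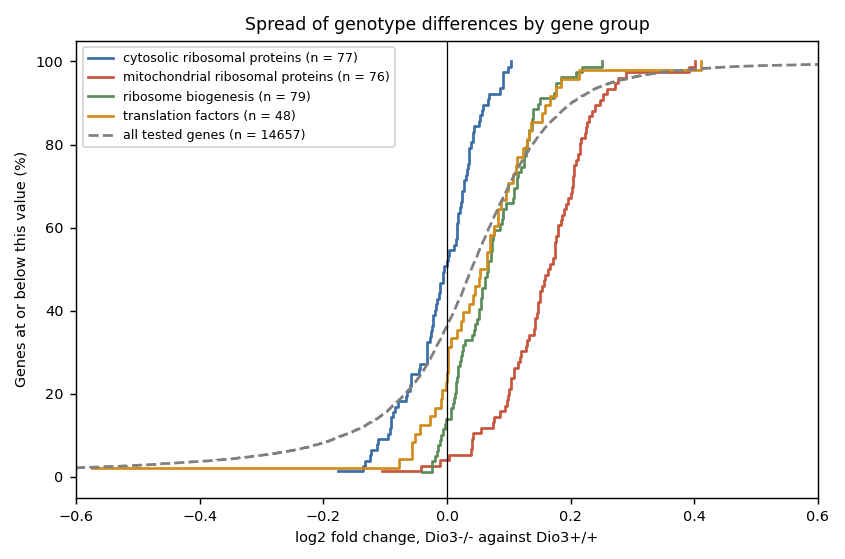
Cumulative share of genes (vertical axis, %) at or below each log2 fold change of Dio3-/- against Dio3+/+ hearts, for cytosolic ribosomal proteins (77 genes), mitochondrial ribosomal proteins (76), ribosome biogenesis (79), translation factors (48) and all genes tested (14657, dashed). The cytosolic ribosomal protein curve crosses 50% near 0 and is steep, and the mitochondrial curve lies to its right with a median of 0.165.

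Mitochondrial ribosomal proteins, which translate the few proteins encoded by mitochondrial DNA, were read beside them. Of 76 tested, 6 rose and none fell, where 1.91% of all genes rose. These were *Mrpl18*, *Mrpl46*, *Mrpl51*, *Mrpl54*, *Mrps23* and *Mrps24*, of which 5 had the lowest *P* values of the list by the rule and the sixth is given to complete the count. *Mrpl18* rose from 32.65 RPKM (CV 0.06) to 43.28 RPKM (CV 0.09), or 0.40 on the log2 scale (95% interval 0.24 to 0.56, limma's adjusted *P* = 0.024). *Mrpl46* rose from 8.28 RPKM (CV 0.06) to 11.01 RPKM (CV 0.08), a change of about the same size. By sign, 73 of the 76 were higher, with a median log2 fold change of 0.165 beside -0.005 for the cytosolic genes. Over all genes the median was 0.039, and 36.1% were lower by sign. Welch's test from the summaries called 0 of the 76. The difference between cytosolic and mitochondrial genes was not tested, and genes within a group do not vary independently. The summed levels, 2030 and 2290 RPKM, are far below those of the cytosolic genes.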

How the data were processed

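RNA from 8 fetal hearts (4 Dio3+/+, 4 Dio3-/-), depleted of ribosomal RNA, was sequenced as single-end reads of 75 bases. The authors aligned the reads with NovoAlign (version 2.08), used only reads with a unique place, and brought all samples to the read total of the smallest by linear scaling. The reference build is not given in the sources used here. The deposited values are the authors' mean per genotype, read as RPKM because the methods filter in that unit, and the coefficient of variation, a ratio of SD to mean, both rounded to 2 decimals. The deposited fold changes, *q* values and call flags of the authors were not used. The study's methods state read numbers over all samples. The table gives no read total per heart, so no counting interval was calculated.

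For each row, log2(RPKM + 0.5) was taken and its SD derived from the coefficient of variation. The variance, pooled over genotypes on 6 degrees of freedom, entered limma's empirical Bayes step (limma 3.58.1 in R 4.3.3) with a trend on the mean (3.52 prior degrees of freedom). Benjamini-Hochberg adjustment ran over 32703 rows above 1 RPKM in a genotype, with a threshold of 0.05. Counts are over gene symbols, by the row with the highest mean. The test was also run on simulated data. There, rows were drawn independently with the same coefficient of variation in both genotypes, unlike in these hearts. Whether the 4 samples of a genotype shared a litter is not given, so *P* values measure only the spread between these hearts. Genes named are all members past the test (none), those with the 5 highest and lowest fold changes and levels, stalk genes, *Rpsa*, tissue paralogs and genes of Diamond-Blackfan anemia, and from other lists up to 5 per direction past the test. The genes, lists and tests were chosen with earlier results of these data known. Shared 75-base stretches and snoRNA positions came from GENCODE M21 and start sites from RefSeq, matched by symbol, with *Rps3a* matched to *Rps3a1*. Python (3.11.15), pandas (2.3.3), numpy (2.4.6) and matplotlib (3.10.9) were used for summaries and plots. Alternatives were other pseudocounts, filters, variance models, tests, scaling and choices of row. A few genes that the rule would name are not reported here by name and are left out of the plots by gene, but remain in counts and medians.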

Additional observations from a re-analysis of the deposited data

How the results depend on the processing

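No ribosomal protein gene passed the threshold under any of the 10 alternatives run, and the lowest adjusted *P* value among them ran from 0.117 (centred on the median log2 ratio) to 0.207 (each coefficient of variation raised by 0.005). Their median log2 fold change ran from -0.043 (centred) to -0.005. Of 234 values of 26 named genes, 230 kept their direction and their side of the threshold. The exceptions came from centring, which lowers every log2 fold change by 0.04 and gave -0.022 for *Rpl5*, -0.026 for *Rplp2*, -0.017 for *Rps29* and -0.014 for *Rps4x*. The 5 snoRNAs that fell were 3 without a filter on low values, without the mean-variance trend or with the coefficients of variation raised, and 0 with Welch's test, alternatives applied to the snoRNAs after their values were seen. The 6 mitochondrial ribosomal protein genes that rose were 3 without a filter or trend, 2 when centred or with the coefficients raised, and 0 with Welch's test. The red cell marker that fell was lost (0) without a filter, without the trend, with Welch's test, when centred or with the coefficients raised, and became 2 above a mean of 5 RPKM. The 2 cardiomyocyte markers became 1 with Welch's test. Counting any row of a gene gave 1 translation factor (*Naca*). Over all genes, 336 passed, 26 with Welch's test, 197 without a filter, 180 when centred and 187 with the coefficients raised. The cause of these changes was not tested. No paired analysis was possible because the table gives genotype means without values for single hearts. For the same reason no heart was left out in turn. The table gives no read total per heart, so no counting interval was calculated.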
